A study of Mus musculus with 26 samples.

Results

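The chitinase family of the mouse is described here through 5 genes: the chitinase-like genes Chil3, Chil4 and Chil1 and the true chitinases Chia1 and Chit1. They were found by their symbol in the platform annotation, where 4 of them carry older names (Chi3l3, Chi3l4, Chi3l1 and Chia). Together they held 73 probe sets of 631748 on the array, and they are 5 of 21757 genes with a symbol. Chil3 had 18 probe sets, Chil4 13, Chil1 12, Chia1 12 and Chit1 18.

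The values are log2 expression values from 26 Affymetrix mouse exon arrays, on which a gene is read by many probe sets, mostly 1 or more per exon. The labels write ES and EB, taken to stand for stem cells of the embryo and the aggregates (embryoid bodies) they form while differentiating, and call each sample a numbered embryonic body cell. The mouse strain is the one grouping given: ES1 to ES14 are labelled 129S2/SvPas (14 arrays) and ES15 to ES26 C57BL/6 (12 arrays). No treatment, time, passage, clone or differentiation day is given for any array. The strain follows the order of the arrays, so strain and an unrecorded batch cannot be told apart. The labels are silent on whether the samples are independent cultures or animals, so a p-value speaks for the scatter among these arrays alone, part of which may be technical.

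ES1 to ES12 and ES13 to ES26 are given as the 2 runs of arrays below, since measured values, those of Chil3 and Chil4 included, set them apart in an earlier analysis of these data. ES13 and ES14 share the strain label of ES1 to ES12 but lie with the other run. Levels of the 5 genes between the runs, or between the strain labels, are therefore a description without a test.

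Chitinases of glycoside hydrolase family 18 cut chitin, the polymer of fungal walls, insect cuticle and parasites. The chitinase-like proteins keep the fold but have lost the catalytic residues, and act as secreted lectins. Chil3 (Ym1) and Chil4 (Ym2) are rodent proteins with no direct human counterpart. Chil3 is made by macrophages activated by interleukin-4 and by neutrophil precursors, and Chil4 is best known from inflamed airway epithelium. Chil1 (BRP-39, the mouse counterpart of human YKL-40) is secreted by macrophages, neutrophils and epithelia. Chia1 is the acidic chitinase of stomach and lung, and Chit1 is the chitinase chitotriosidase.

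The 5 genes lie in 2 neighbourhoods in RefSeq (GRCm38.p6): Chia1, Chil3 and Chil4 are consecutive protein-coding genes on chromosome 3, and Chit1 and Chil1 are consecutive protein-coding genes on chromosome 1. The 250 bases before the annotated start are shown for the 3 genes that were high in ES1 to ES12, because Chil3 and Chil4 were nearly alike there while Chil1 was not. Capitals mark matches, on either strand, to TATAAA (the core promoter box), GGAAGT (a core bound by PU.1, the myeloid ETS factor), TTNNGNAA (a loose C/EBP pattern) or the STAT6 palindrome (a site of the factor downstream of interleukin-4). Chil3 is at chr3:106167565-106167814 (minus strand), Chil4 at chr3:106219480-106219729 (minus strand) and Chil1 at chr1:134181906-134182155 (plus strand).
Chil3: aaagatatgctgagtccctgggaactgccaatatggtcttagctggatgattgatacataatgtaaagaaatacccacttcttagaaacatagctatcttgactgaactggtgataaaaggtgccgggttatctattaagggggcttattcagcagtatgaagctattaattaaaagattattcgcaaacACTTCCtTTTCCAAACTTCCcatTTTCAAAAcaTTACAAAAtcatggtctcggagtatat
Chil4: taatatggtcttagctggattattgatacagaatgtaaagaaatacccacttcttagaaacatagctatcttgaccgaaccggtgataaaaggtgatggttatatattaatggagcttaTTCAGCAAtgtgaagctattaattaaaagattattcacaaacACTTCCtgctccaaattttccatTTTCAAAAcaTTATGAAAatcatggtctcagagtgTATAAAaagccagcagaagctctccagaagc
Chil1: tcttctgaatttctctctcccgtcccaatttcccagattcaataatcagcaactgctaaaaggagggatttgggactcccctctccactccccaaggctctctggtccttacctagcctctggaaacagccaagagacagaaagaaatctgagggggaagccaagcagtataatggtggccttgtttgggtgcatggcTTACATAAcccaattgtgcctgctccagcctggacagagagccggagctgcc

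In a pairwise alignment with free ends, Chil3 and Chil4 were identical at 201 of 223 aligned columns (90.1%), against 52.0% to 60.1% for the other pairs among the 5 genes. Chil3 held GGAAGT on the reverse strand at 60 to 55 and at 46 to 41 bases before its start, and Chil4 held it once, at 89 to 84 bases. The annotated starts are offset, and the Chil4 match lies in the same shared stretch as the Chil3 match at 60 to 55 bases. The second Chil3 match overlaps a TTNNGNAA match by 1 base. GGAAGT occurred in 19.7% of all 32851 RefSeq promoter windows of this length and in none of the windows of Chil1, Chia1 and Chit1. TTNNGNAA had 3 matches in Chil3, 3 in Chil4 and 1 in Chil1, none in Chia1 or Chit1, and occurred in 36.8% of all windows. TATAAA was found in Chil4, 31 to 26 bases before its start, and in Chia1, and in 12.4% of all windows. The Chil3 window ends within the bases aligned to the TATAAA of Chil4, so its absence there is not a difference between the genes. The STAT6 palindrome was in none of the 5 windows and in 5.85% of all. A match describes letters and not a bound site, and bases after the annotated start were not searched.

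Chil3 spanned 11.45 to 13.09 in ES1 to ES12 (median 12.82, n = 12), against 2.51 to 3.64 in ES13 to ES26 (median 2.97, n = 14). The gene value is the median of the brighter 50% of its probe sets. Every array of the first run lay above every array of the second, with 7.80 log2 units between the nearest pair, and a log2 unit is a 2-fold step. ES11 was the highest array and ES6 the lowest of the first run. ES13 was at 3.04 and ES14 at 2.78, inside the span of the C57BL/6 arrays, so arrays labelled 129S2/SvPas held both levels. On all 14 arrays of the second run Chil3 was dimmer than the array's own median probe set. In these bulk samples fewer cells of a type and less RNA per cell cannot be told apart.

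Chil4 spanned 10.72 to 12.47 in ES1 to ES12 (median 12.02), against 2.21 to 3.58 in ES13 to ES26 (median 2.61). The runs were 7.14 log2 units apart at their nearest arrays, ES6 was again the lowest of the first run, and ES3 was the highest. ES13 was at 2.86 and ES14 at 2.57.

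Chil1 spanned 7.32 to 11.42 in ES1 to ES12 (median 9.91), against 4.58 to 6.17 in ES13 to ES26 (median 5.60). The runs did not overlap, but the gap was smaller, 1.14 log2 units. ES4 was the highest array and ES5 the lowest of the first run. ES13 was at 5.47 and ES14 at 5.30.

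The true chitinases showed overlapping runs. Chia1 spanned 4.16 to 5.51 in ES1 to ES12 (median 5.02), against 4.35 to 5.17 in ES13 to ES26 (median 4.74), and 4 of the 12 arrays of the first run lay above all of the second. Chia1 was brighter than the array's median probe set on 2 of 26 arrays, both in the first run. Chit1 spanned 5.85 to 6.95 in ES1 to ES12 (median 6.37), against 5.43 to 6.68 in ES13 to ES26 (median 5.88), and 2 of the 12 arrays of the first run lay above all of the second. For Chit1 both ES13 (6.40) and ES14 (6.68) were above the median of the first run, and ES14 was the highest array of the second.

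The difference of the medians, ES1 to ES12 minus ES13 to ES26, was 9.85 log2 units for Chil3, 9.41 for Chil4, 4.32 for Chil1, 0.48 for Chit1 and 0.29 for Chia1. Its median over the 18341 tested genes, those with at least 4 probe sets, was 0.00, and the share of them with a difference at least as large was 0.00545% for Chil3 (the gene itself), 0.0109% for Chil4, 1.06% for Chil1, 19.6% for Chit1 and 27.3% for Chia1. The 3 chitinase-like genes were members whose runs did not overlap, as were 7.76% of all tested genes in the same direction. By strain label Chil3 averaged 11.21 ± 3.55 in 129S2/SvPas and 3.02 ± 0.39 in C57BL/6, Chil4 10.57 ± 3.36 and 2.67 ± 0.45, Chil1 9.03 ± 1.85 and 5.55 ± 0.44, Chia1 5.00 ± 0.35 and 4.79 ± 0.24, and Chit1 6.37 ± 0.32 and 5.94 ± 0.31 (SD, n = 14 and 12, in that order). In the limma fit over all genes 4 of the 5, all but Chia1, were past the threshold of 0.05 as higher in 129S2/SvPas, where 21.1% of all genes were. Of their probe sets, 18 of 18 in Chil3, 11 of 13 in Chil4, 11 of 12 in Chil1, 1 of 12 in Chia1 and 2 of 18 in Chit1 were higher, against 14.2% of all probe sets, and none was lower, against 14.6%. The members were chosen on this contrast, and nothing is read from these counts.

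**Figure D1:**
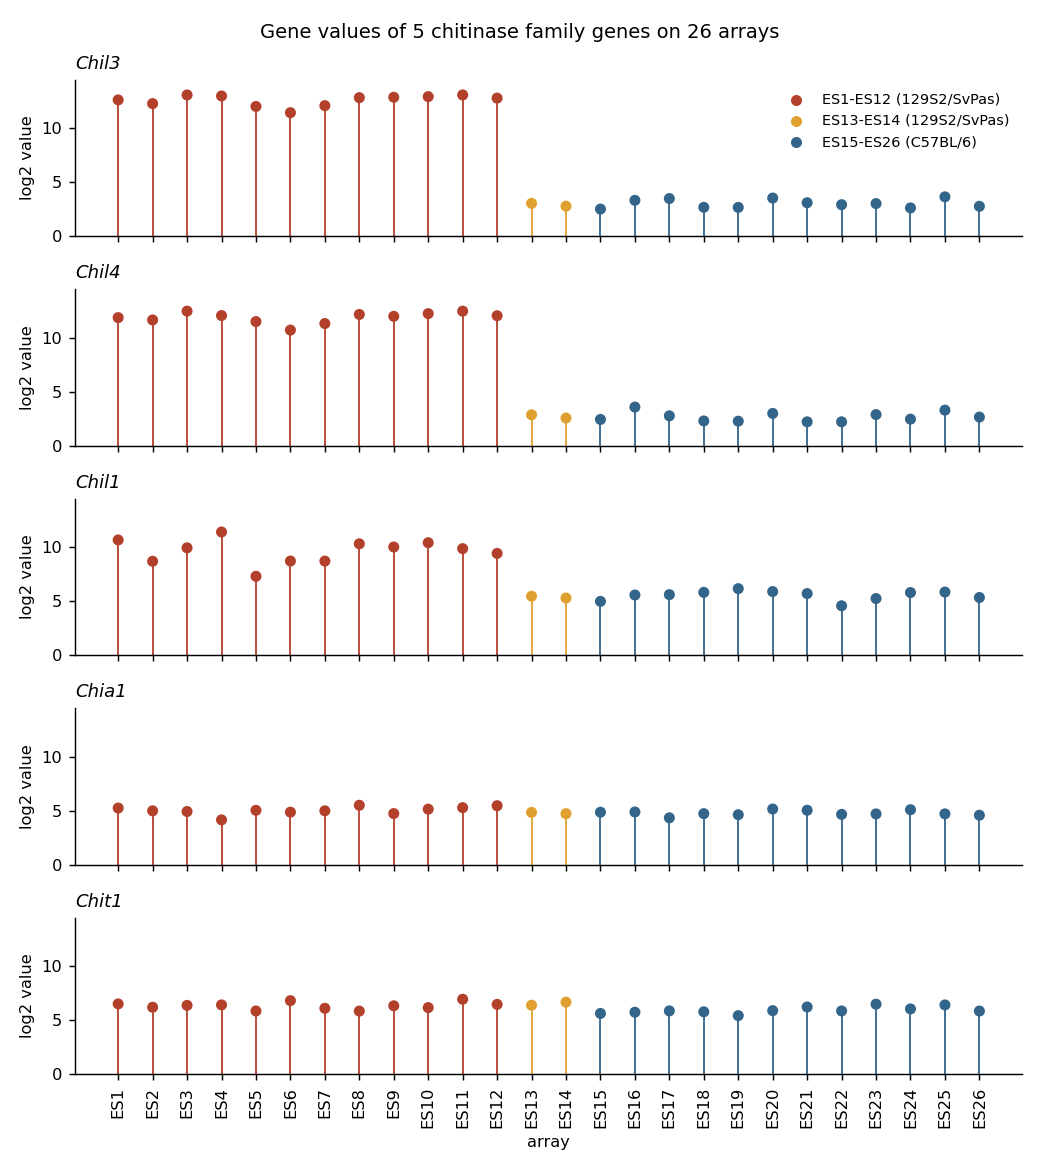
Gene values (log2, vertical axis, from 0) of Chil3, Chil4, Chil1, Chia1 and Chit1 on each of the 26 arrays (horizontal axis), with ES1 to ES12 in red, ES13 and ES14 in yellow and ES15 to ES26 in blue. Chil3 and Chil4 lie above 10 in ES1 to ES12 and below 4 elsewhere, Chil1 lies between 7.32 and 11.42 against at most 6.17, and the runs overlap for Chia1 and Chit1.

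Neighbours on the chromosome were looked up by position. On chromosome 3 Chil5, the chitinase-like gene next to Chia1 on the side away from Chil3, spanned 3.80 to 4.93 in ES1 to ES12 and 3.19 to 4.78 in ES13 to ES26. Dennd2d, a Rab exchange factor gene beyond Chil4, spanned 8.00 to 9.42 in ES1 to ES12 and 4.57 to 6.39 in ES13 to ES26, without overlap. The runs overlapped for Pifo, beyond Chil5, and Chil6, between Chil4 and Dennd2d, was not analysed here. On chromosome 1 Mybph, a myosin binding protein gene next to Chil1, spanned 6.89 to 7.54 in ES1 to ES12 and 6.98 to 7.60 in ES13 to ES26, and the runs also overlapped for Btg2 and Fmod on the side of Chit1. Chil1 therefore lay high in ES1 to ES12 between 2 neighbours, Chit1 and Mybph, whose runs overlapped.

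Most probe sets of Chil3 followed the gene. The difference of medians was at least 8 log2 units in 14 of the 18, and every array of ES1 to ES12 lay above every array of ES13 to ES26 in 16 of them, against 6.07% of all probe sets of tested genes. Probe set 4413262 is an example, spanning 12.15 to 13.57 in ES1 to ES12 and 1.81 to 4.34 in ES13 to ES26. A probe set was taken to depart from its gene when its difference of medians was more than 2 log2 units from that of the gene value. By that measure 4 probe sets of Chil3 departed, 7 of Chil4, 4 of Chil1 and none of Chia1 and Chit1. Among tested genes with a difference above 3, 22.0% of probe sets departed, and 2.14% of the probe sets of all tested genes. Nearest the limit, 4562304 of Chil1 departed by 2.44 and 5110022 of Chil1 stayed within it at 1.43.

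The brightest Chil3 probe set, 4355506, was bright on every array. It spanned 12.00 to 13.46 in ES1 to ES12 and 8.99 to 9.64 in ES13 to ES26. Its second run was narrow and far above that of the next Chil3 probe set, 5208365, which spanned 11.43 to 13.09 in ES1 to ES12 and 2.78 to 5.58 in ES13 to ES26. Within ES1 to ES12 it still followed the other brighter probe sets of the gene (r = 0.99 over 12 arrays, a description). It is 1 of the 9 probe sets of the gene value, and without the departing probe sets the difference of medians of Chil3 was again 9.85.

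The dimmest Chil3 probe sets had smaller differences between the runs than the gene value. Probe set 4573572 spanned 6.20 to 10.30 in ES1 to ES12 and 1.74 to 5.48 in ES13 to ES26. For 4309667 the spans were 3.56 to 6.04 and 2.13 to 3.65, and for 5313972 they were 3.13 to 6.37 and 2.07 to 3.85, in the same order, and both overlapped between the runs. All 3 were lowest in ES6 or ES7 within the first run, and the gene value was lowest in ES6.

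Chil4 was less uniform. The 6 probe sets that followed the gene had differences of 8.82 to 10.41 log2 units, and all 6 belong to the 7 of the gene value. The other of the 7, 5506889, spanned 7.54 to 9.11 in ES1 to ES12 and 5.35 to 6.05 in ES13 to ES26, without overlap, and its r with the others over ES1 to ES12 was 0.41. Within that run its highest array was ES3 and its lowest ES7. Probe sets 4378527 and 5599327 had intermediate differences of 5.85 and 6.64.

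The 4 dimmest Chil4 probe sets barely separated the runs. Probe set 4549874 spanned 2.78 to 4.93 in ES1 to ES12 and 2.52 to 5.75 in ES13 to ES26, with a difference of -0.50. The differences of 4908168, 5471262 and 4742212 were 0.70, 0.91 and 0.06, and their medians in ES1 to ES12 were 3.21, 2.90 and 1.77. Taking the mean over all 13 probe sets in place of the brighter 50% gave a Chil4 difference of 5.66, and their median gave 6.53.

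Chil3 and Chil4 are closely related paralogs, so their probe sets were set against each other. Over 26 arrays, the 6 Chil4 probe sets that followed their gene lay at a mean absolute difference of 0.16 to 0.45 log2 units from the nearest Chil3 probe set, and for 5 of the 6 it was nearer than any other probe set of Chil4. As a scale, the nearest probe set of any other gene lay at 0.33 to 0.53 from them, and for 2 of the 6 it was nearer than any of Chil3. Probe set 4667566 of Chil4 and 5424012 of Chil3 were the closest pair, at 0.16 on average, with medians of 11.45 and 11.40 in ES1 to ES12 and of 2.01 and 1.93 in ES13 to ES26. The 7 departing Chil4 probe sets lay at 0.71 to 2.05 from their nearest Chil3 probe set, which was nearer than any of Chil4 for 2 of the 7. A probe set of another gene, at 0.21 to 0.65, was nearer than any of Chil3 for all 7. The searches among other genes covered far more probe sets than the 18 of Chil3 or the 13 of Chil4. A near match was thus easier to find there, and nothing is concluded from these counts. No probe sequences were used here, so shared hybridisation was not tested.

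Chil1 held probe sets of both kinds. Probe sets 5089142 and 5180637, the brightest of the gene, spanned 9.29 to 11.70 and 8.63 to 10.42 in ES1 to ES12, and 9.03 to 9.65 and 8.68 to 9.80 in ES13 to ES26. Both overlapped between the runs, with differences of 0.79 and 0.44. They still varied with the rest of the gene within ES1 to ES12 (r = 0.93 and r = 0.78), with ES4 highest and ES5 lowest in both. Probe set 4562304 departed the other way: it spanned 6.51 to 11.14 in ES1 to ES12 and 2.42 to 4.67 in ES13 to ES26, a difference of 6.76 against 4.32 for the gene value. The 4th departing probe set, 5502871, had a difference of 1.25. Without the departing probe sets the Chil1 difference was 5.08.

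The probe sets of the 2 true chitinases stayed together. Differences ran from -0.35 to 0.97 over the 12 of Chia1 and from -0.28 to 0.79 over the 18 of Chit1, and in each of these probe sets the runs overlapped. The largest in Chia1 was 5013920, at 6.28 to 7.75 in ES1 to ES12 and 4.64 to 6.61 in ES13 to ES26. The brightest Chit1 probe set, 5322266, spanned 7.97 to 9.07 in ES1 to ES12 and 7.65 to 8.93 in ES13 to ES26. Within ES1 to ES12 the probe sets of a gene varied together in Chil3 and Chil1 (median r with the gene's other brighter probe sets 0.98 and 0.97) and Chil4 (0.94), and hardly in Chit1 (0.17) and Chia1 (0.06).

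**Figure D2:**
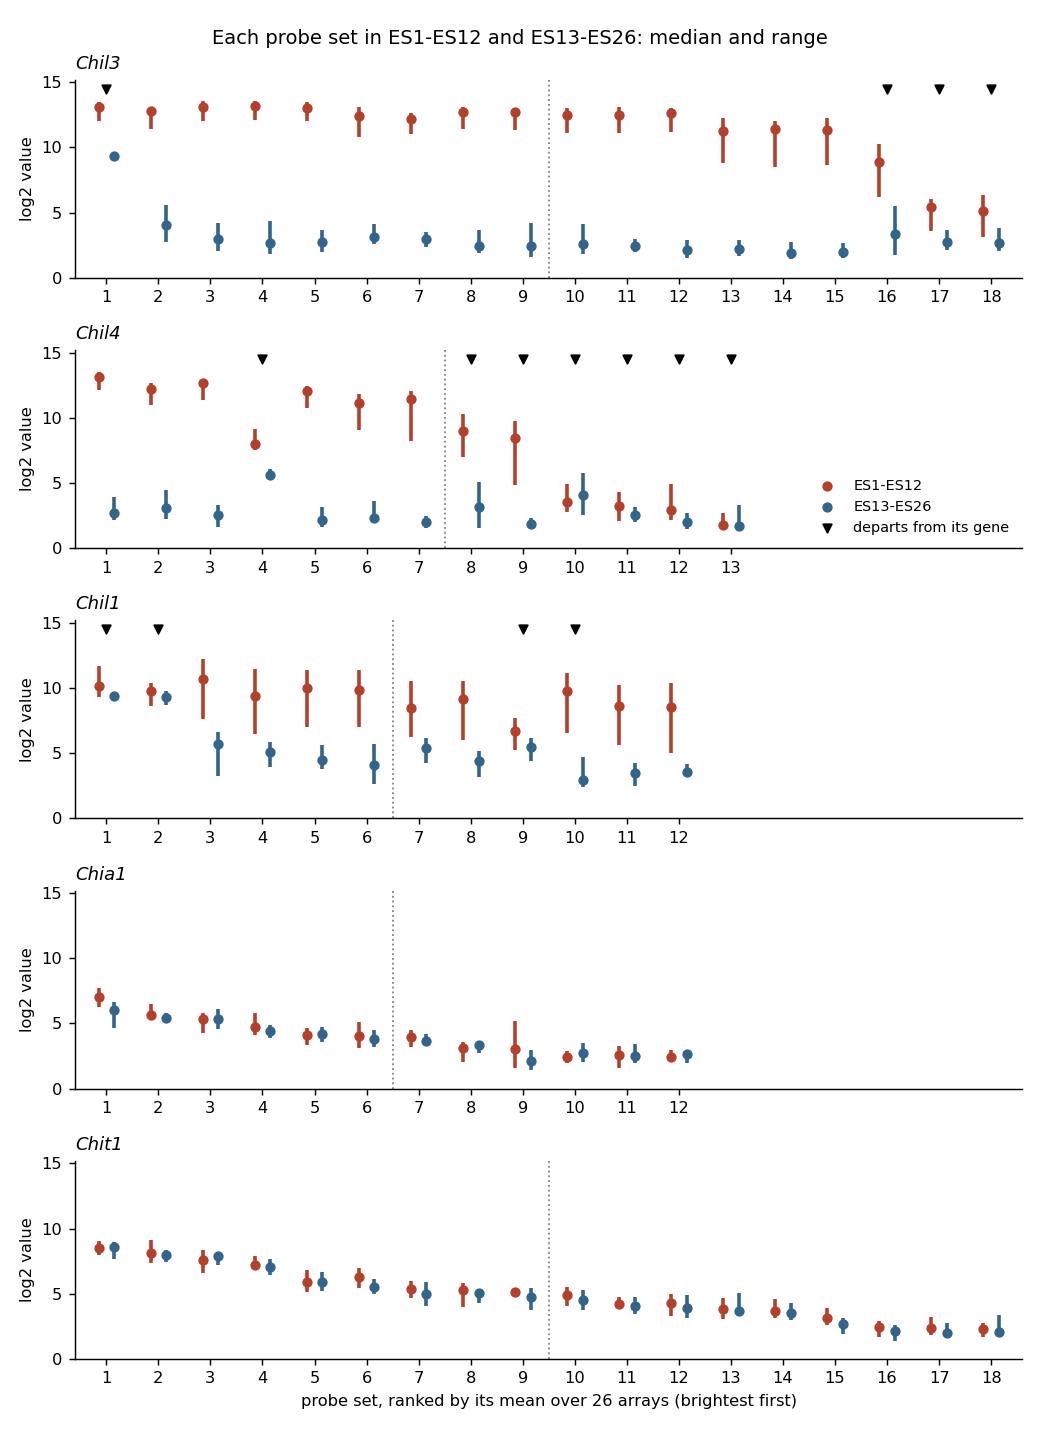
Median (point) and range (bar) of every probe set in ES1 to ES12 (red, left) and ES13 to ES26 (blue, right) on the log2 scale, ranked by brightness within each gene, with the brighter 50% left of the dotted line and triangles over departing probe sets. The brightest probe sets of Chil3 and Chil1 are high in both runs, the dimmest of Chil4 are low in both, and Chia1 and Chit1 overlap throughout.

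**Figure D3:**
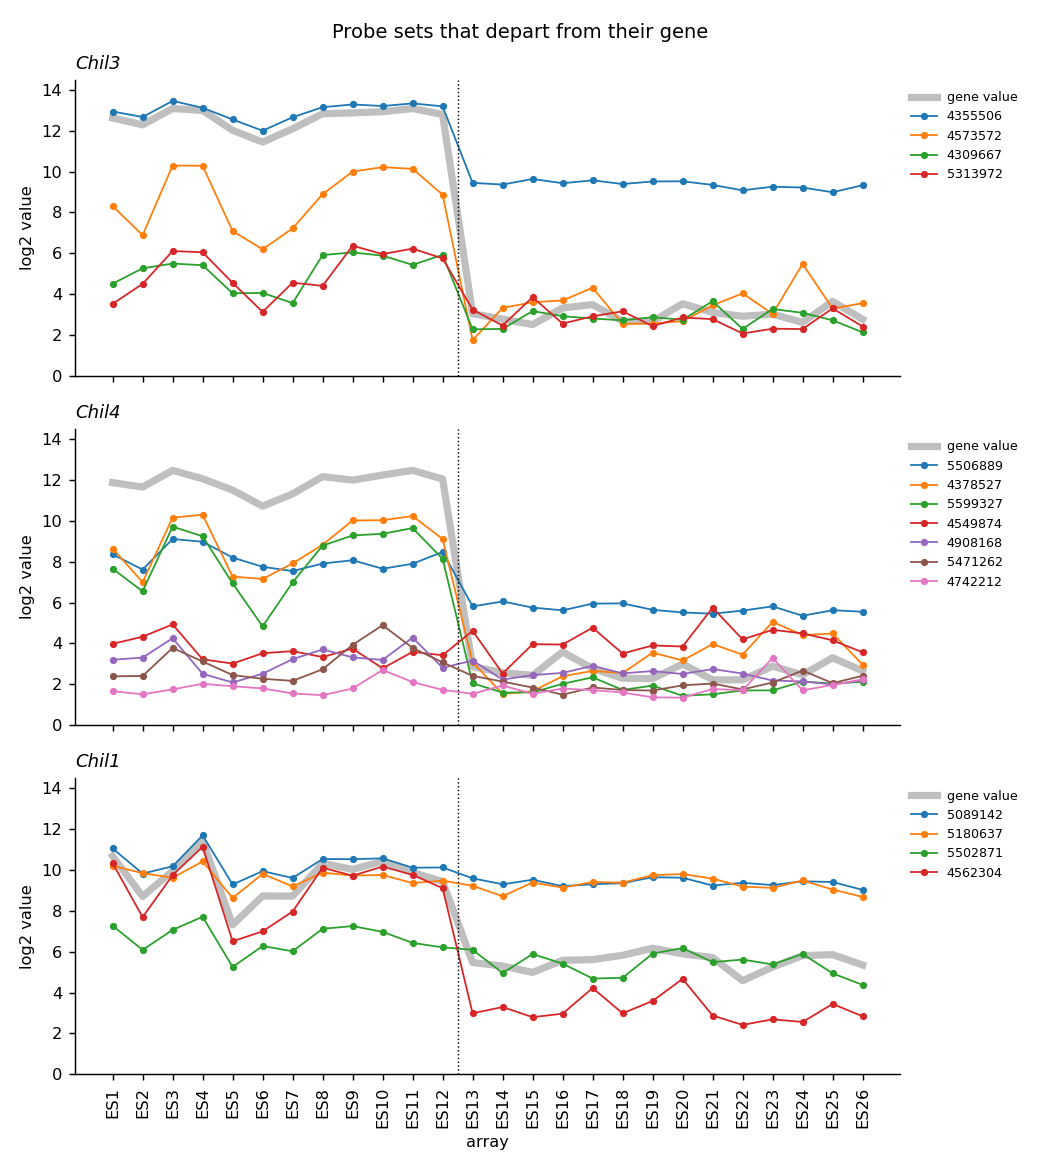
Log2 values of each departing probe set on each array, with the gene value as the thick grey line and a dotted line between ES12 and ES13. In ES13 to ES26, 4355506 of Chil3 stays between 8.99 and 9.64 and both bright probe sets of Chil1 stay between 8.68 and 9.80, and 4 of the Chil4 probe sets stay below 6 on all arrays.

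Variation inside ES1 to ES12 was not used to choose the genes. By gene value Chil1 spread most, with a range of 4.10 log2 units over these arrays and an SD of 1.11 (n = 12), and 0.251% of the 18341 tested genes had a range at least as large. The range was 1.64 for Chil3, 1.75 for Chil4, 1.36 for Chia1 and 1.10 for Chit1, and 10.8%, 8.6%, 19.8% and 35.8% of genes reached those. The median range over all tested genes was 0.95. These ranges rest on the brighter probe sets, and some less bright ones of Chil3 and Chil4 spread more widely in ES1 to ES12. Probe set 4573572 of Chil3 spanned 6.20 to 10.30 and 5599327 of Chil4 4.83 to 9.72, while 4742212 of Chil4 spanned only 1.46 to 2.70.

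Chil3 and Chil4 varied together over ES1 to ES12, with a Pearson r of 0.97 (two-sided permutation test, p = 3e-05, adjusted p = 0.0003 over 10 pairs of members, n = 12) and a Spearman rho of 0.94 (permutation p = 3e-05, adjusted p = 0.0003). Without ES6 and ES5, the arrays farthest from the median of Chil3, r was 0.95. Their gene values differed by 0.52 to 0.94 in these arrays. Shared hybridisation of their probe sets was not tested, so the p-value does not show that these are separate measurements of each gene.

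Chil1 followed Chil3 less closely, with r = 0.73 (permutation p = 0.00597, adjusted p = 0.0298, n = 12), 0.68 without ES6 and ES5, and a rho of 0.61 that did not pass after adjustment (permutation p = 0.04, adjusted p = 0.2). ES5, ES6 and ES7 resembled each other over all genes (r 0.94 to 0.99 among them and 0.84 to 0.94 with the other 9). Among the other 9 arrays r was 0.89 to 0.98, a range that overlaps both. ES5, ES6 and ES7 were the 3 lowest of these arrays in Chil3 and among the 4 lowest in Chil1. Without them, an alternative added after the data were seen, r of Chil3 with Chil1 was 0.53 and did not pass (permutation adjusted p = 0.761), and r of Chil3 with Chil4 was 0.90 (permutation adjusted p = 0.0039). Chil4 with Chil1 had r = 0.61 (permutation p = 0.0352, adjusted p = 0.117) and a rho of 0.55 (permutation p = 0.0657, adjusted p = 0.219), with r = 0.59 without ES6 and ES7. Without ES5, ES6 and ES7 its r was 0.25 (permutation adjusted p = 0.887), and with the median over all probe sets it was 0.75 and passed (permutation adjusted p = 0.013). The 7 pairs with Chia1 or Chit1 had r from -0.20 to 0.25 and permutation adjusted p from 0.93 to 0.999. Those with Chit1 depended on the gene summary: taking the median over all probe sets gave r = 0.82 with Chil3, 0.73 with Chil4 and 0.67 with Chil1 (permutation adjusted p = 0.0024, 0.013 and 0.0296). Without the 2 arrays farthest from the median, r with Chit1 was 0.42 for Chil3, 0.51 for Chil4 and -0.12 for Chil1. In ES13 to ES26 no correlation is given, since Chil3 and Chil4 were dim there.

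**Figure D4:**
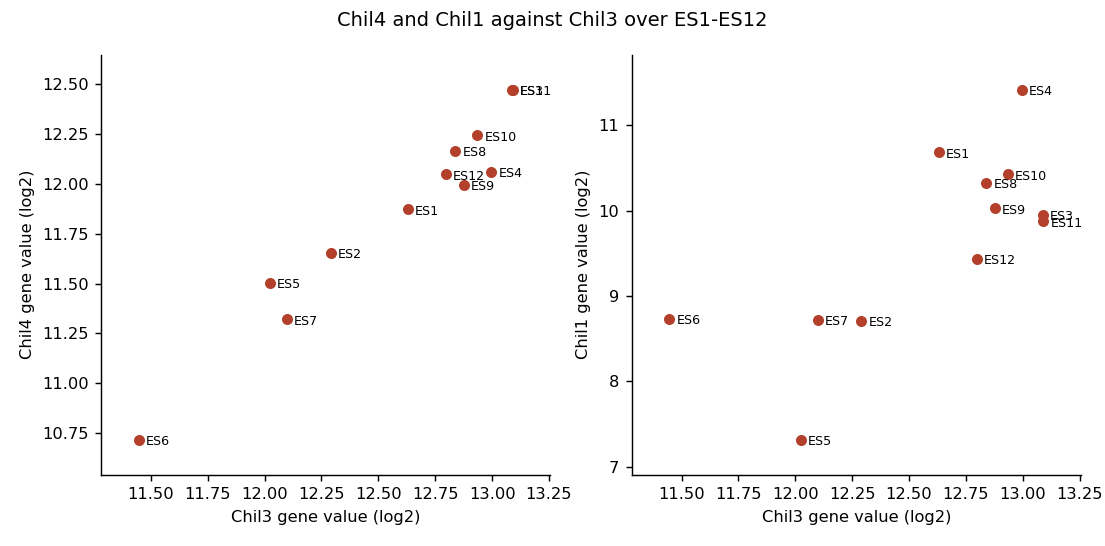
Gene values (log2) of Chil4 (left panel) and Chil1 (right panel) against Chil3 over the 12 arrays ES1 to ES12, 1 labelled point per array. Chil4 lies along a line with Chil3 (r = 0.97), and Chil1 scatters more widely (r = 0.73), with ES5 lowest at 7.32 and ES4 highest at 11.42.

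Among 8874 tested genes above the median gene in ES1 to ES12, provisional gene names left out, those most like Chil3 in these 12 arrays were Mcl1, an anti-apoptotic BCL2 family gene (r = 0.98), Chil4, Bnip3l, a mitochondrial receptor of autophagy (0.97), the small GTPase gene Rab8b (0.97) and the inhibitory G protein gene Gnai2 (0.96). Those most like Chil4 were Chil3, the polyamine acetyltransferase gene Sat1 (0.95), Rab8b (0.95), Mcl1 (0.95) and Gnai2 (0.94). These r are descriptions over 12 arrays of unknown independence that share their normalization. Unlike Chil3, Mcl1 overlapped between the runs, at 10.72 to 11.92 in ES1 to ES12 and 10.58 to 11.48 in ES13 to ES26. Rab8b spanned 10.41 to 11.54 in ES1 to ES12 and 8.23 to 9.95 in ES13 to ES26. Gnai2 was bright in both runs, at 12.27 to 12.59 and 11.26 to 12.07, in the same order.

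The other chitinase family members that were tested did not share the pattern of Chil3. Of 4 further members tested, Chil5 was higher in 129S2/SvPas by 0.43 ± 0.15 log2 units (SE; limma adjusted p = 0.0222) but not when all its probe sets were summarised by their median (limma adjusted p = 0.321). The chitobiase gene Ctbs (-0.06), the chitinase domain gene Chid1 (0.21) and the oviductal glycoprotein gene Ovgp1 (-0.07) did not pass. These 3 are named to complete the tested members, and Chia2 and Chil6, also on the list, were not tested. The median over this list was 0.08, and -0.0015 over all genes.

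Receptors and chitin sensors came next. Of 8 genes 5 were higher in 129S2/SvPas and none lower, against 21.1% and 22.1% of all genes. Clec7a, the glucan receptor Dectin-1, averaged 9.08 ± 2.05 in 129S2/SvPas and 5.69 ± 1.38 in C57BL/6 (SD, n = 14 and 12), a difference of 3.40 ± 0.66 (SE; limma adjusted p = 0.00015). Tlr2 differed by 2.50 (limma adjusted p = 0.00012, and 0.66 with adjusted p = 0.0763 for the median over all probe sets) and the galactose lectin gene Lgals3 by 1.89 (limma adjusted p = 0.00826). Clec7a spanned 8.21 to 11.20 in ES1 to ES12, but ES13 (4.49) and ES14 (5.19) lay below the C57BL/6 mean. ES13 and ES14 also lay below that mean for Tlr2 (6.66 and 6.72) and Lgals3 (8.02 and 7.09). All strain label differences of the lists count ES13 and ES14 as 129S2/SvPas, although they lie with the other run. Tmem219 and Il13ra2, which are among the reported partners of the Chil1 protein, were singled out after their values were seen. Tmem219 differed by 0.64 (limma adjusted p = 0.000131), while Il13ra2 spanned 2.20 to 2.85 in ES1 to ES12 and 2.29 to 2.93 in ES13 to ES26 and did not pass (limma adjusted p = 0.578). Of the other genes on this list, Cd44 differed by 0.91 (limma adjusted p = 0.0093), and Ptgdr2 (-0.01) and Fibcd1 (-0.01) did not pass.

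Genes of macrophages activated by interleukin-4, a setting in which Chil3 is a standard marker, were higher for 11 of 18 and lower for none. Over all genes 21.1% were higher and 22.1% lower. The list median was 1.26. The runs did not overlap in 6 of the 18, against 7.76% of all tested genes in the same direction. The galactose lectin Mgl2 differed by 2.96 ± 0.50 (SE; limma adjusted p = 3.1e-05), the mannose receptor Mrc1 by 2.73 ± 0.48 and the checkpoint ligand Pdcd1lg2 by 2.52 ± 0.35. Arg1 and Retnla, the usual companions of Chil3 as markers, were singled out after their values were seen. Arg1, arginase 1, spanned 6.28 to 11.52 in ES1 to ES12 (median 7.91) and 5.44 to 6.29 in ES13 to ES26. It was higher in 129S2/SvPas by 2.03 (limma adjusted p = 0.00214), and the runs barely overlapped, the lowest array of the first at 6.28 and the highest of the second at 6.29. Retnla, the secreted protein RELM-alpha, spanned 3.14 to 6.78 in ES1 to ES12 (median 4.32) and 3.04 to 4.47 in ES13 to ES26, with overlap. It was higher by 0.75 (limma adjusted p = 0.0493) and did not pass under 3 of 8 alternatives (limma adjusted p = 0.0507 to 0.0539).

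Granule genes of neutrophil precursors, the other cells known for Chil3, were higher for 15 of 16 tested, against 21.1% of all genes. The list median was 4.84. The runs did not overlap in 15, against 7.76% of all tested genes in the same direction. Ms4a3, a marker of granulocyte and monocyte progenitors, spanned 11.94 to 13.07 in ES1 to ES12 and 3.39 to 5.15 in ES13 to ES26. Mmp8, the neutrophil collagenase, spanned 9.94 to 12.66 and 2.89 to 5.00, and Ngp, a granule protein, 11.02 to 13.50 and 3.64 to 5.34, in the same order. Their strain label differences were 7.08, 6.96 and 6.81. The list level, its mean over genes, was 10.56 to 11.83 in ES1 to ES12 and 5.64 to 6.45 in ES13 to ES26.

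Macrophage and lysosome genes were higher for 12 of 18 and lower for 1, the lipid carrier Apoe (-2.53, named as the exception), with a median of 1.73. The shares over all genes were 21.1% higher and 22.1% lower. Lyz2 (5.38), Lyz1 (4.19), both lysozymes, and Adgre1 (3.98), a macrophage surface receptor, had the largest differences. The list level was 8.89 to 10.80 in ES1 to ES12 and 6.49 to 8.97 in ES13 to ES26, and some arrays of the second run thus reached the first. Lyz2 itself reached 9.94 in ES13 to ES26, where Chil3 reached 3.64.

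Eosinophil, basophil and mast cell genes were higher for 9 of 10, against 21.1% of all genes. They were led by the mast cell carboxypeptidase Cpa3 (6.77), the histidine decarboxylase Hdc (5.54) and the basophil protease Mcpt8 (5.03). List levels were 7.21 to 9.39 in ES1 to ES12 and 4.72 to 5.43 in ES13 to ES26. Airway and stomach epithelium, the usual sites of Chia1 and Chil4, had 2 of 13 genes higher and 2 lower, against 21.1% and 22.1% of all genes. The list median was 0.08, with list levels of 5.35 to 5.75 in ES1 to ES12 and 5.43 to 5.79 in ES13 to ES26. Among them Clca1 differed by -0.80, Foxj1 by -0.38 and Atp4b by 0.32. Foxj1 and Atp4b no longer passed when all probe sets entered the median (limma adjusted p = 0.504 and 0.653).

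Embryonic stem cell, erythroid and fibroblast genes mostly ran the other way. Of 10 naive embryonic stem cell genes 9 were lower in 129S2/SvPas, with Dppa5a at -4.91, Tdgf1 at -4.11 and Zfp42 at -3.99, and list levels of 5.44 to 5.82 in ES1 to ES12 and 7.17 to 10.99 in ES13 to ES26. Zfp42 spanned 4.06 to 4.66 in ES1 to ES12, where Chil3 was high, and 5.87 to 11.95 in ES13 to ES26. Erythroid and embryonic globin genes were lower for 6 of 7, led by Hbb-y (-3.38), Hbb-bh1 (-3.35) and Hba-x (-2.67), with overlapping list levels. Fibroblast genes were lower for 8 of 9, led by Prrx1 (-4.64), Col1a2 (-4.03) and Postn (-4.02), and the exception, Thy1, also a surface antigen of blood cells, was higher. Of all genes 22.1% were lower and 21.1% higher. The part of these cell types in the levels of the chitinase family was not tested.

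**Figure D5:**
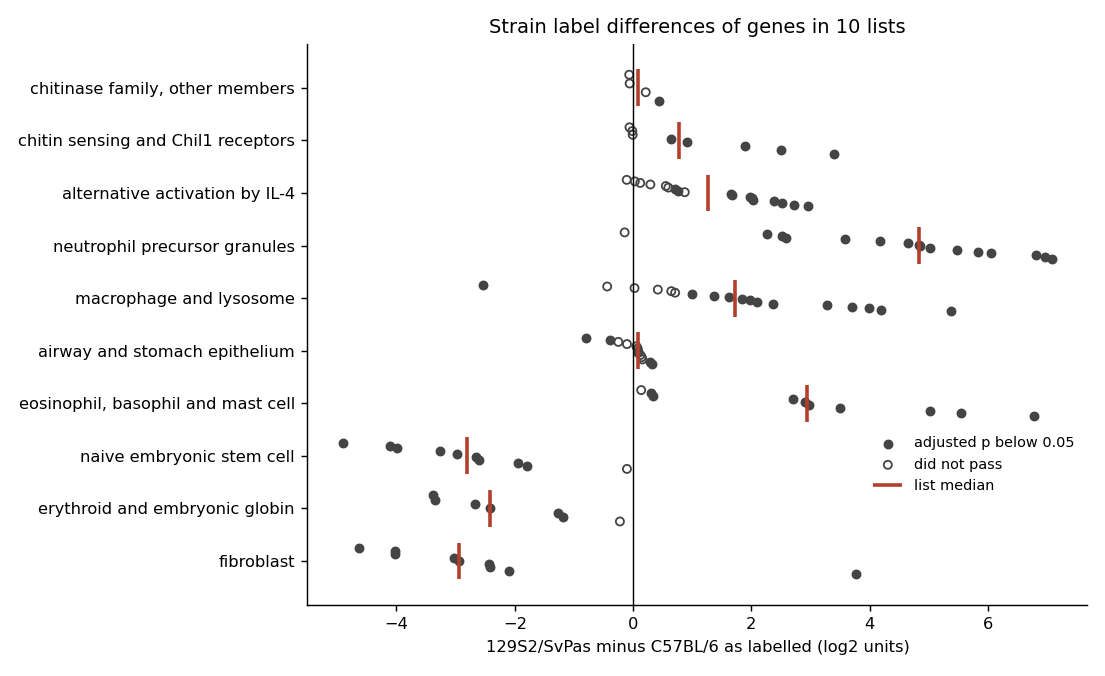
Differences between strain labels, 129S2/SvPas minus C57BL/6 in log2 units (horizontal axis), for each tested gene of 10 lists (rows), filled where the limma adjusted p is below 0.05, with the list median in red. The median is 4.84 for neutrophil precursor granules and 0.08 for the other chitinase family members and for airway and stomach epithelium.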

How the data were processed

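RNA from 26 samples was, per the labels' protocols, purified on columns, treated to remove genomic DNA, amplified over 2 rounds and hybridised to mouse exon arrays. The log2 values deposited by the authors are, per the labels, RMA values made with Expression Console at the extended exon level. RMA corrects background, brings arrays to a common distribution and summarises probes per probe set, which limits large differences at both ends of the scale. The log base was taken from RMA convention and the value range (0.831 to 15.6). Version and genome build are not given in the sources used here. The table held 631748 probe sets and 0 missing values. Array medians lay between 5.32 and 5.51, no 2 arrays were identical, and precision is limited by how many arrays there are.

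In the platform annotation 306069 probe sets (48.4%) had 1 symbol, while 6067 had more and 319612 had none. RefSeq (GRCm38.p6) listed 17747 symbols as they stand, 3725 older ones were replaced through a synonym, and 285 were left. A gene value was the median of the brighter 50% of its probe sets by mean over 26 arrays, and the 18341 genes holding 4 or more probe sets entered limma 3.58.1 in R 4.3.3 (eBayes with a trend, two-sided, Benjamini-Hochberg, threshold 0.05, 129S2/SvPas minus C57BL/6). The same fit was run on all probe sets. Correlations over ES1 to ES12 used 100000 resamples. Steps were tested on simulated data. Promoter windows came from RefSeq and were aligned with Biopython 1.88.

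The members and the 10 gene lists (124 genes, 113 tested) were chosen with earlier results of these data known, so no pattern is independent support. Named genes are the members, the 5 genes most like Chil3 and Chil4 over ES1 to ES12, in each list at most 3 of the genes past the threshold, by size of difference. Named outside that rule, after values were seen, are Arg1, Retnla, Tmem219, Il13ra2, Cd44, Ptgdr2, Fibcd1, Ctbs, Chid1, Ovgp1, Apoe and Thy1. The neighbours on the chromosome were named by position. Alternatives covered the gene summary, normalization, how many probe sets a gene needs, dim features, the eBayes trend, array weights and leaving out arrays.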

Additional observations from a re-analysis of the deposited data

How the results depend on the processing

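The differences between runs kept their direction for all 5 genes under every alternative run (gene summary, centring, without ES13 and ES14, without departing probe sets). Averaging all probe sets gave a difference of 8.47 for Chil3 and 5.66 for Chil4, and with the median over all probe sets 6.53 for Chil4; these bring in the dim probe sets. The count of departing probe sets, 15, stayed within 1.5 times under the 3 alternatives run. Of 18341 genes 7931 passed by strain label, and 4841 when restricted to the 9170 genes above the median gene, where fewer were tested; the other alternatives gave 7929 to 9842.

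The correlation of Chil3 and Chil4 passed under all 4 alternatives (r 0.90 to 0.99, permutation adjusted p 0.0001 to 0.0039). That of Chil3 and Chil1 passed under 3 (permutation adjusted p 0.00647 to 0.0363) and not without ES5, ES6 and ES7 (r = 0.53). With the median over all probe sets 4 further pairs passed: Chil4 and Chil1 (r = 0.75, and 0.72 with the mean), Chil3 and Chit1 (0.82), Chil4 and Chit1 (0.73) and Chil1 and Chit1 (0.67). For these the cause was not tested. Alternatives were run for 37 of the 113 tested list genes, those named except Cd44, Ptgdr2 and Fibcd1. Of 319 values 311 kept their side of the threshold, and 8 did not, for Atp4b, Chil5, Foxj1, Tlr2 and Retnla. Probes not above background were not marked in the table, so dim values could not be set apart as bounds. No paired analysis was possible because the replicate numbers are given in accession order and pair no samples.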
